A study of Rattus norvegicus with 170 samples.

Results

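The genes described here are the 7 cyclin-dependent kinase (CDK) inhibitors *Cdkn1a*, *Cdkn1b*, *Cdkn1c*, *Cdkn2a*, *Cdkn2b*, *Cdkn2c* and *Cdkn2d*, together with *Men1*, the gene of menin. They were picked by name, by the gene symbol of each row and not by any measured value. They make up 8 of 24113 genes and 10 of 27586 rows in a table of single rat islet cells, *Cdkn1c* being listed as 3 transcripts and each of the others as 1.

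The islets came from wild-type male Sprague Dawley rats of 8 weeks and were hand-picked. They stayed whole during 48 h of culture in medium with serum and 5.5 mM glucose, to which either 0.1% DMSO, the vehicle, or 3 μM GNF4877, an aminopyrazine that inhibits the kinases Dyrk1a and Gsk3b, had been added. After dispersal, each cell was held in its own port of a Fluidigm C1 chip and its RNA was sequenced, which gave profiles of 86 cells from DMSO-treated and 84 cells from GNF4877-treated islets. Cells are called here by the numbers in their labels. The labels tie no cell to an animal or a culture and name no repeat of the chip. Each treatment is therefore 1 sample, cells are not replicates, no test was run, and treatment, chip and sequencing lane cannot be told apart.

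Progress through the cell cycle is driven by cyclins bound to CDKs. The INK4 inhibitors (*Cdkn2a* to *Cdkn2d*, encoding p16, p15, p18 and p19) bind Cdk4 and Cdk6 and keep D-type cyclins from activating them, whereas the CIP/KIP inhibitors (*Cdkn1a*, *Cdkn1b* and *Cdkn1c*, encoding p21, p27 and p57) bind complexes of cyclins with Cdk2 and other CDKs. Menin is a tumour suppressor of endocrine tissue that joins a histone methyltransferase complex and is known to maintain transcription of *Cdkn1b* and *Cdkn2c* in islet cells, and p16 is known for its accumulation in ageing β-cells. RNA levels do not show the amount or phosphorylation of these proteins, which is known to be controlled by degradation as well.

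Cells with *Insulin 1* (*Ins1*) of 1000 RPM (reads of the gene per 1000000 mapped reads of the cell) or more are called Ins1-high. They were divided by *Cyclin B1* (*Ccnb1*), a marker of G2 and M phase. Of the 78 Ins1-high DMSO cells, 77 had *Ccnb1* of 0 and 1 had 49.4 RPM. Of the 59 Ins1-high GNF4877 cells, 40 had *Ccnb1* of 0, 8 had a value above 0 and below 10 RPM, and 11 had 10 RPM or more, with values from 19.1 to 912 RPM. Cells with glucagon (*Gcg*) of 1000 RPM or more and *Ins1* below 1000 RPM, called alpha cells, numbered 5 in DMSO and 18 in GNF4877. Mapped reads per cell ran from 241604 to 2499138. Among cells with *Ccnb1* of 0, the median number of genes read was 8932 in DMSO and 6913 in GNF4877, and at an equal depth of 100000 reads it was 6620 and 4824. No 2 cells had identical profiles. Reads on listed transcripts made up 2.65% to 18.9% of the mapped reads in 7 cells, 4 of them Ins1-high, and no less than 76.4% in the other cells. Leaving the 7 cells out changed none of the counts of members past 2-fold given below.

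The labels of these groups were compared with marker genes. Of 8 β-cell markers in the table, 8 had a read in the Ins1-high DMSO cells and 7 in each group of Ins1-high GNF4877 cells. *Mafa*, a factor of mature β-cells, was read in 5 of the 77 DMSO cells and was at 0 in the 40 and 11 GNF4877 cells with *Ccnb1* of 0 and of 10 RPM or more. *Nkx6-1* was at 0 in all 23 alpha cells, and *Pdx1* was read in 1 of them. The 5 alpha cell markers were all read in the alpha cells of either treatment. A second hormone, that is at least 1000 RPM of *Ppy*, *Sst* or *Gcg*, was present in 25 of the 77 DMSO cells and 1 of the 40 GNF4877 cells with *Ccnb1* of 0, and in 1 of the 11 GNF4877 cells with *Ccnb1* of 10 RPM or more. Summed markers of other cell types, in the DMSO and then the GNF4877 cells with *Ccnb1* of 0, reached at most 72.6 and 1.06 RPM for 6 acinar genes, 197 and 64.5 RPM for 5 endothelial genes, 8314 and 2.71 RPM for 6 mesenchymal genes, 419 and 981 RPM for 5 immune genes, and 1037 and 1113 RPM for 5 duct genes. The medians of these sums were below 1 RPM except for the duct genes (158 and 168 RPM), and the mesenchymal sum passed 1000 RPM in 1 DMSO cell. The 5 alpha cell markers summed to medians of 741 and 319 RPM and reached 1000 RPM in 33 of the 77 and 9 of the 40 cells. They did so in 4 of the 11 cells too. *Gc*, 1 of these markers, was read in 76 of the 77 and 40 of the 40 cells, at medians of 590 and 258 RPM. The 3 delta cell markers had medians of 1.06 and 1.70 RPM. In the 11 cells with *Ccnb1* of 10 RPM or more the duct genes reached 686 RPM and the immune genes 615 RPM. The part of second-hormone cells, of these markers, and of the smaller number of genes read per GNF4877 cell, in the differences between treatments was not tested. The ratio of a member is also given without second-hormone cells where that moved it across the 2-fold line. Ratios of the partner and regulator genes below are given only with these cells included.

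The members differed widely in how many cells held a read of them. *Cdkn2b* was read in 161 of all 170 cells. *Cdkn1b* came next in the Ins1-high cells of both treatments. *Cdkn2d*, *Men1*, *Cdkn1a* and *Cdkn2c* were read in part of the cells, and *Cdkn1c* and *Cdkn2a* in almost none. The median number of members with a read was 3 of 8 in the DMSO cells with *Ccnb1* of 0, 2 in the GNF4877 cells with *Ccnb1* of 0 and 3 in the GNF4877 cells with *Ccnb1* of 10 RPM or more. RPM were not divided by transcript length, so levels are compared between groups of cells and not between genes.

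**Figure D1:**
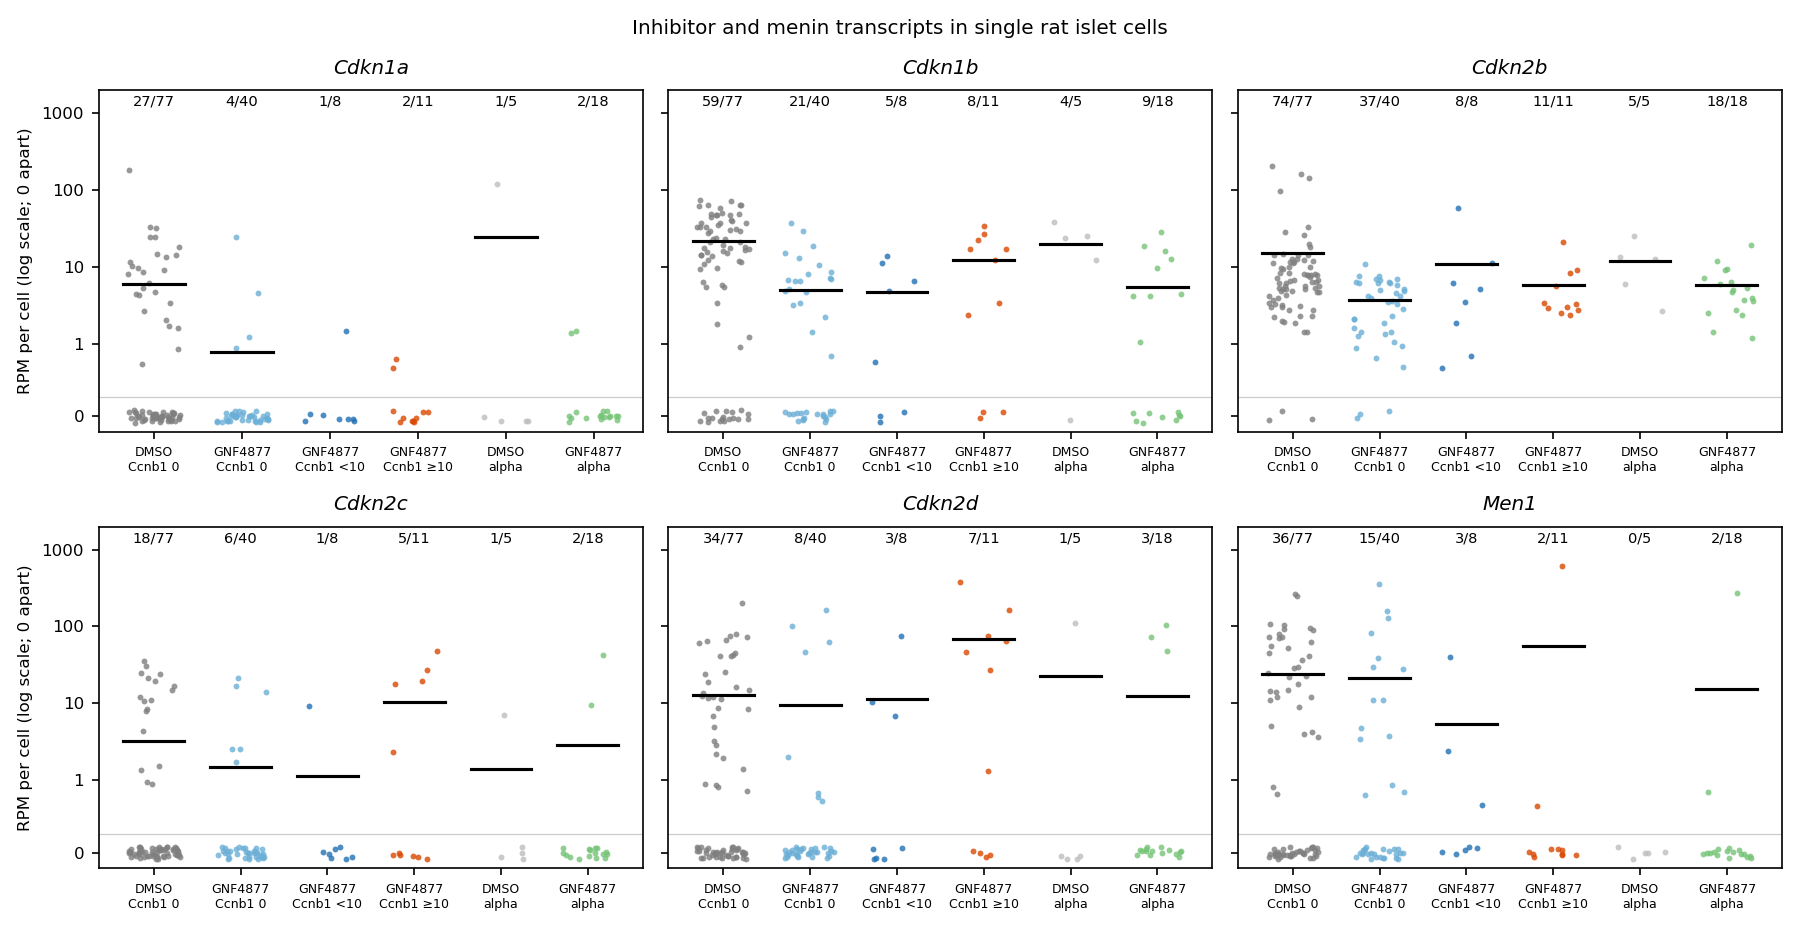
RPM per cell (log scale, cells without a read in a band below) of the 6 members read in more than a few cells, in Ins1-high cells by treatment and *Ccnb1* (RPM) and in alpha cells. Each point is 1 cell, the bar is the mean RPM of the group (not drawn where it is close to 0), and the fraction above gives the cells with a read, such as 27 of 77 for *Cdkn1a* in DMSO and 4 of 40 in GNF4877.

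Among the CIP/KIP genes, *Cdkn1a*, whose product p21 halts the cycle after DNA damage, was read in 27 of the 77 Ins1-high DMSO cells with *Ccnb1* of 0 (35.1%, with 24.5% to 46.8% as the exact 95% interval of Clopper and Pearson), against 4 of the 40 GNF4877 cells with *Ccnb1* of 0 (10%, 2.79% to 23.7%). Intervals of shares cover counting error only. The values ran from 0 to 184 RPM with a median of 0 in DMSO and from 0 to 24.3 RPM with a median of 0 in GNF4877, so the cells of the treatments overlapped. The DMSO mean of 5.88 RPM rested largely on cell 95, which held 40.6% of the summed RPM, and the GNF4877 mean of 0.772 RPM on cell 47, which held 78.6%. On the scale of log2((mean RPM + 1)/(mean RPM + 1)), used for all ratios here, GNF4877 over DMSO was -1.96, and it was -1.36 without DMSO cell 95 and -2.56 without GNF4877 cell 47. As a difference of means of log2(RPM + 1) it was -0.89, within the 2-fold line. At 100000 reads the shares were 20% (11.6% to 30.8%) and 2.56% (0.0649% to 13.5%), with intervals that overlap. Among the 11 cells with *Ccnb1* of 10 RPM or more, *Cdkn1a* was read in 2, at 0.477 and 0.632 RPM, which is 1 read in each.

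*Cdkn1b*, whose product p27 holds Cdk2 inactive in resting cells, was read in 59 of the 77 DMSO cells (76.6%, 65.6% to 85.5%) and 21 of the 40 GNF4877 cells with *Ccnb1* of 0 (52.5%, 36.1% to 68.5%). The values ran from 0 to 73.3 RPM with a median of 16.5 RPM in DMSO and from 0 to 37.6 RPM with a median of 1.06 RPM in GNF4877. The cells overlapped, but the upper part of the DMSO range was nearly empty in GNF4877. A level of 10 RPM or more was reached by 49 of the 77 DMSO cells (63.6%, 51.9% to 74.3%) and 6 of the 40 GNF4877 cells (15%, 5.71% to 29.8%), and the intervals do not overlap. At 100000 reads a read was found in 69.3% (57.6% to 79.5%) and 23.1% (11.1% to 39.3%) of cells, again without overlap. The means were 21.6 and 4.99 RPM and the log2 ratio was -1.92. No single cell moved it beyond -2.13 or -1.87, and without second-hormone cells it was -1.82. In DMSO, cells with a second hormone had a mean of 27.2 RPM and the others 18.9 RPM.

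Within the GNF4877 cells, *Cdkn1b* had a higher mean where *Ccnb1* was 10 RPM or more. It was read in 8 of the 11 cells with *Ccnb1* of 10 RPM or more (72.7%, 39.03% to 93.98%), at values from 0 to 33.6 RPM with a median of 12.4 RPM, and 6 of the 11 reached 10 RPM. The mean of 12.2 RPM against 4.99 RPM gave a log2 ratio of 1.14, and 0.89 without cell 16. The 8 cells with *Ccnb1* below 10 RPM had a mean of 4.63 RPM. The 1 DMSO cell with *Ccnb1* held 24.7 RPM of *Cdkn1b*.

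*Cdkn1c*, an imprinted gene whose product p57 acts in development, was close to undetected. It had 1 read in 1 of the 78 Ins1-high DMSO cells (1.28%, 0.0325% to 6.94%), no read in the 59 Ins1-high GNF4877 cells (0 of 59 cells, exact upper bound 6.06%, or 5.08% if 3 cells of the total are taken as the limit of a count of 0) and 3.91 RPM in GNF4877 alpha cell 20.

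Among the INK4 genes, *Cdkn2a* was likewise close to undetected. It was read in Ins1-high DMSO cell 21, at 2.66 RPM, and in DMSO alpha cell 89, at 21.8 RPM, and in none of the 84 GNF4877 cells. Cell 21 held 184144 RPM of *Gcg* beside 1784 RPM of *Ins1*. For 0 of 59 Ins1-high GNF4877 cells the exact upper bound is again 6.06%. The row is 1 transcript of a gene that is known to encode p16 and the unrelated p19Arf from different first exons, and no value separates these products.

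*Cdkn2b*, which lies close to *Cdkn2a* on its chromosome and is the gene of p15, a known target of TGF-β signalling, was read in nearly every cell but at few reads, with a median of 6 reads per cell and quartiles of 3 and 9. It was read in 74 of the 77 DMSO cells (96.1%, 89.03% to 99.2%) and 37 of the 40 GNF4877 cells with *Ccnb1* of 0 (92.5%, 79.6% to 98.4%). Of the 9 cells of the table without a *Cdkn2b* read, 5 were among the 7 cells with few reads on listed transcripts. The DMSO values ran from 0 to 208 RPM with a median of 6.39 RPM and the GNF4877 values from 0 to 10.7 RPM with a median of 3.48 RPM. Most cells of both treatments lay in the same low range, and 4 DMSO cells stood above it, with 208 RPM in cell 11, 161 RPM in cell 65, 145 RPM in cell 68 and 96.2 RPM in cell 42. Cells 42 and 65 also carried a second hormone.

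The means of *Cdkn2b* were 15.2 RPM in DMSO and 3.69 RPM in GNF4877 and the log2 ratio was -1.79, which single cells moved between -1.84 and -1.54. That range leaves out 1 cell at a time. The 4 high DMSO cells named above raise the DMSO mean together, and the ratio without all 4 was not computed. As a difference of means of log2(RPM + 1), on which high cells weigh less, the value was -1.05. A level of 10 RPM or more was reached by 21 of 77 DMSO cells (27.3%, 17.7% to 38.6%) and 1 of 40 GNF4877 cells (2.5%, 0.0633% to 13.2%), and the intervals do not overlap. At 100000 reads the shares with a read were 60% (48.0% to 71.1%) and 33.3% (19.1% to 50.2%), which overlap. In the 11 GNF4877 cells with *Ccnb1* of 10 RPM or more the mean was 5.83 RPM and the log2 ratio over the *Ccnb1*-0 cells was 0.54, of which cell 78, at 21.2 RPM, gave the larger part (0.18 without it). In the 8 cells with *Ccnb1* below 10 RPM the mean was 10.9 RPM, 66.8% of it from cell 38 at 58.2 RPM.

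*Cdkn2c*, the gene of p18, was read in 18 of the 77 DMSO cells (23.4%, 14.5% to 34.4%) and 6 of the 40 GNF4877 cells with *Ccnb1* of 0 (15%, 5.71% to 29.8%). The highest values were 35.95 and 21.2 RPM, both medians were 0, and the means of 3.20 and 1.46 RPM gave a log2 ratio of -0.77. It was -1.26 without second-hormone cells, past the 2-fold line, and -1.10 without cell 50, the highest GNF4877 cell, which carried a second hormone. With 0.1 in place of 1 RPM added it was -1.08, and at 100000 reads -1.17. Among the GNF4877 cells with *Ccnb1* of 10 RPM or more, *Cdkn2c* was read in 5 of 11 (45.5%, 16.7% to 76.6%). These were cell 30 with 48.1 RPM, cell 40 with 27.2 RPM, cell 17 with 19.5 RPM, cell 96 with 17.7 RPM and cell 16 with 2.30 RPM. The mean of 10.4 RPM against 1.46 RPM gave a log2 ratio of 2.22, which single cells moved between 1.64 and 2.55.

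*Cdkn2d*, the gene of p19Ink4d, which is known to be transcribed periodically in dividing cells, is shown with the 250 bases before its annotated start on chr8:28110810-28111059 (RefSeq, GRCr8, minus strand, read 5′ to 3′), together with 30 of the bases before the start of *Cdkn2c* at chr5:129645057-129645086 (minus strand), because these were the INK4 genes with the highest ratios for cells with *Ccnb1*. The *Cdkn2d* window lies outside the annotated gene, while that of *Cdkn2c* lies within the annotated span of its gene. The genome build behind the deposited table is not stated, and no deposited position was used. Capitals mark the GC box GGGCGG on either strand.
*Cdkn2d*: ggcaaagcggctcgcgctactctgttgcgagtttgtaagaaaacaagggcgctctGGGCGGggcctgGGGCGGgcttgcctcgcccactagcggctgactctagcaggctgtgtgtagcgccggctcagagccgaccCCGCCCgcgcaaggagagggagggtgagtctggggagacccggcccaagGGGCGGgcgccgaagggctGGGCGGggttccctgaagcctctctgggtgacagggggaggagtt
*Cdkn2c*: caccgagctgctGGGCGGccgccaagaagt
The *Cdkn2d* window held 5 GC boxes and the *Cdkn2c* window 1, and 30.5% of 33469 annotated RefSeq windows of the same length hold at least 1. GC boxes were not particular to these genes. The window of *Cdkn2b* held 3, those of *Cdkn1b*, *Cdkn2a* and *Men1* held 1 each, and that of *Cdkn1a* held 0. A further search covered TTNNCGC, a core of E2F sites, and TTTGAA, the cell cycle homology region, on both strands. TTNNCGC had no match in the windows of the 7 members that have an entry, against 16.7% of all windows. TTTGAA matched once, before *Cdkn2b*, against 16.2% of all windows. Such matches describe letters and are not binding sites.

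*Cdkn2d* was read in 34 of the 77 DMSO cells (44.2%, 32.8% to 55.9%) and 8 of the 40 GNF4877 cells with *Ccnb1* of 0 (20%, 9.05% to 35.6%). The highest values were 205 RPM in DMSO cell 82 and 164 RPM in GNF4877 cell 41, and both medians were 0. The means of 12.97 and 9.39 RPM gave a log2 ratio of -0.43, and -1.12 without cell 41, which held 43.5% of the GNF4877 sum. Of the 11 cells with *Ccnb1* of 10 RPM or more, 7 had a *Cdkn2d* read (63.6%, 30.8% to 89.1%). Their values were 384 RPM in cell 16, 163 RPM in cell 30, 76.3 RPM in cell 17, 65.1 RPM in cell 40, 46.4 RPM in cell 36, 27.5 RPM in cell 31 and 1.31 RPM in cell 25. The mean was 69.4 RPM, 50.3% of it from cell 16, and the log2 ratio over the *Ccnb1*-0 cells was 2.76. Without cell 16 it was 1.91, and without *Ccnb1*-0 cell 41 it was 3.45. A level of 10 RPM or more was reached by 6 of 11 cells (54.5%, 23.4% to 83.3%) and 4 of 40 cells (10.0%, 2.79% to 23.7%), with intervals that overlap by little. In the DMSO cells with *Ccnb1* of 0 it was reached by 21 of 77 (27.3%, 17.7% to 38.6%), an interval that overlaps both.

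The high *Cdkn2d* values were not limited to cells with *Ccnb1*. Beside the DMSO cells given above, the 4 GNF4877 *Ccnb1*-0 cells above 10 RPM (cells 12, 39, 41 and 92) held 62.1, 99.96, 164 and 46.4 RPM of *Cdkn2d*. These 4 held from 0 to 27.1 RPM of *Mki67*, another marker of cycling cells. Other genes of the cycle were read in some of them, *Ccnb2* at 348 RPM in cell 12 and *Cdk2* at 111 RPM in cell 39 and 96.3 RPM in cell 41. Among the cells with *Ccnb1* of 10 RPM or more, a division at 100 RPM of *Mki67*, chosen after the values were seen, gave 6 cells above and 5 below. *Cdkn2d* was read in 5 of the 6 (median 70.7 RPM) and 2 of the 5 (median 0), and *Cdkn2c* in 5 of the 6 (median 18.6 RPM) and none of the 5. *Cdkn1b* was read in 6 of the 6 (median 17.2 RPM) and 2 of the 5. All 5 lower cells had *Ccnb1* between 54.7 and 553 RPM. The same division in the cells with *Ccnb1* of 0 left 2 with *Mki67* of 100 RPM or more, and 0 of these 2 held a read of *Cdkn1b*, *Cdkn2c* or *Cdkn2d*.

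**Figure D2:**
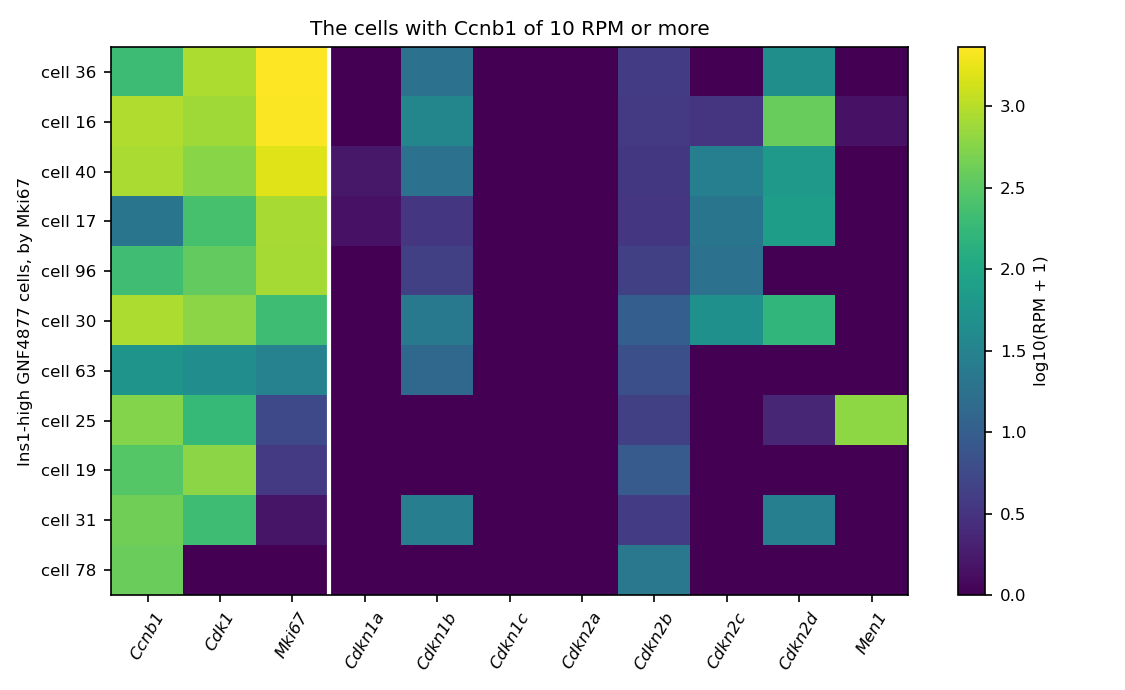
log10(RPM + 1) of *Ccnb1*, *Cdk1*, *Mki67* and the 8 members in the 11 Ins1-high GNF4877 cells with *Ccnb1* of 10 RPM or more, ordered by *Mki67* from the top. *Cdkn2d* reached 384 RPM in cell 16 and *Cdkn2c* was read only among the 6 cells with *Mki67* of 100 RPM or more, while the *Men1* value of 620 RPM in cell 25 stood alone.

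*Men1* was read in 36 of the 77 DMSO cells (46.8%, 35.3% to 58.5%) and 15 of the 40 GNF4877 cells with *Ccnb1* of 0 (37.5%, 22.7% to 54.2%). The highest values were 262 RPM in DMSO cell 69 and 353 RPM in GNF4877 cell 21, with medians of 0. The means of 23.9 and 21.4 RPM gave a log2 ratio of -0.15, and -0.85 without cell 21. *Men1* was read in 2 of the 11 cells with *Ccnb1* of 10 RPM or more (18.2%, 2.28% to 51.8%), at 620 RPM in cell 25 and 0.460 RPM, or 1 read, in cell 16. The mean of 56.4 RPM and the log2 ratio of 1.36 over the *Ccnb1*-0 cells rested on cell 25, without which the ratio was -4.42. Without cell 21, of the *Ccnb1*-0 cells, it was 2.05.

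**Figure D3:**
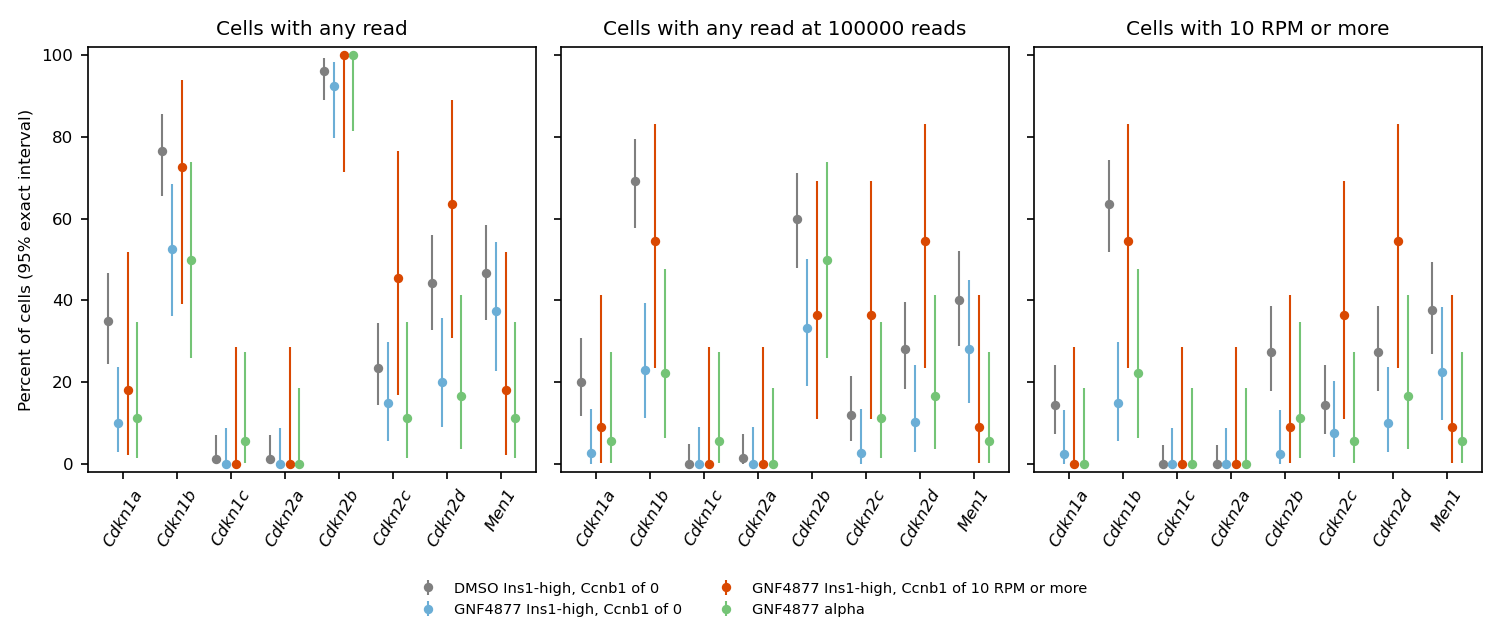
Percent of cells with any read, with any read at 100000 reads per cell and with 10 RPM or more, for the 8 members in 4 groups of cells. Points are shares and bars exact Clopper-Pearson 95% intervals, which for *Cdkn1b* at 10 RPM or more run from 51.9% to 74.3% in DMSO and from 5.71% to 29.8% in GNF4877 cells with *Ccnb1* of 0.

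Over the 8 members, 3 (*Cdkn1a*, *Cdkn1b* and *Cdkn2b*) had a log2 ratio of -1 or less for GNF4877 over DMSO cells with *Ccnb1* of 0, and 0 had 1 or more. Of the 13228 genes with a mean of 1 RPM or more over both groups, 21.1% were at -1 or less and 9.04% at 1 or more, and their median was -0.15. The members include 6 that passed this filter and 2 that did not (*Cdkn1c* and *Cdkn2a*). The *Cdkn2b* ratio includes 4 high DMSO cells that were not left out together. Shares of cells with a read had intervals apart and lower in GNF4877 for 1 member, *Cdkn1a*, and for 19% of all genes tested. At 10 RPM or more they were apart and lower for 2 members, *Cdkn1b* and *Cdkn2b*, and for 13.6% of genes, and at 100000 reads for 1 member, *Cdkn1b*, and 14.9% of genes. Intervals apart and higher were found for 0.280%, 0.401% and 0.257% of genes and for none of the 8 members. Lower values in the GNF4877 cells were thus common among all genes.

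For GNF4877 cells with *Ccnb1* of 10 RPM or more over those with *Ccnb1* of 0, 4 members (*Cdkn1b*, *Cdkn2c*, *Cdkn2d* and *Men1*) were at 1 or more and 0 at -1 or less. Of 12527 genes tested, 17.0% were at 1 or more and 25.4% at -1 or less, with a median of -0.12. The filter passed 5 of the 8 members, without *Cdkn1a*, *Cdkn1c* and *Cdkn2a*. Without cell 25, which held the *Men1* reads, the count was 3 of 8. *Cdkn2d* stood above 95.7% and *Cdkn2c* above 93.5% of the genes tested. No member had shares with intervals apart in this comparison, against 1.12% of genes higher and 0.0319% lower. At 10 RPM or more the shares of genes were 1.29% higher and 0.0559% lower, and at 100000 reads 1.12% higher and 0.0559% lower, again with 0 of the 8 members. At the 11 cells of the smaller group these intervals are wide.

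**Figure D4:**
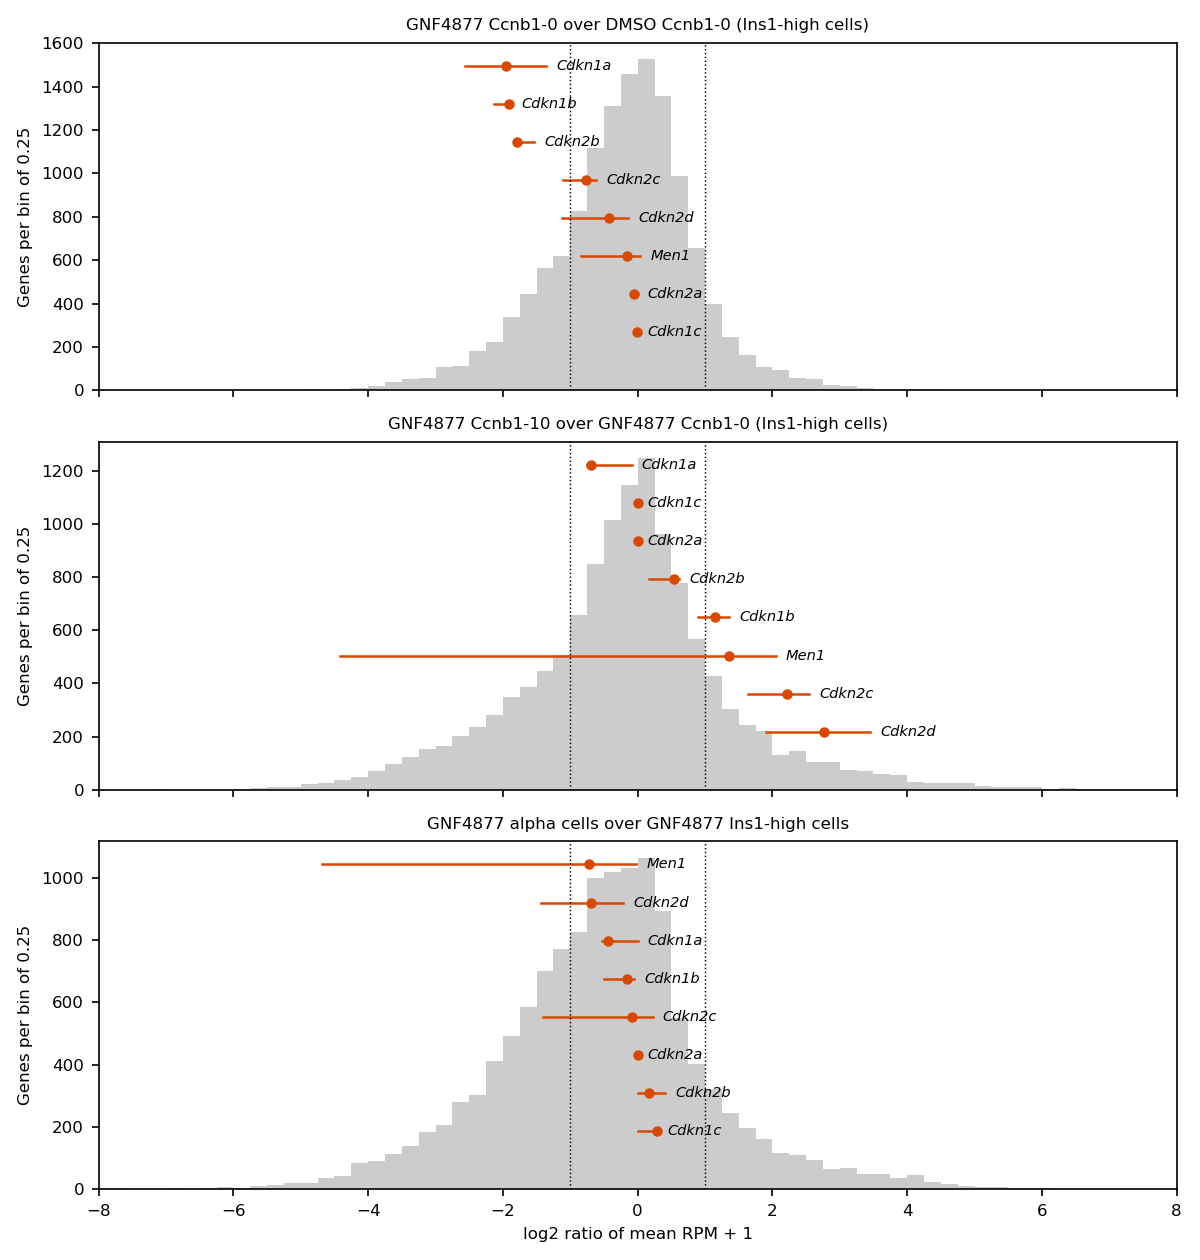
Log2 ratios of mean RPM + 1 for the 8 members (points, with the range over leaving out each cell in turn as lines) over the histogram of all genes with a mean of 1 RPM or more (grey) in the 3 comparisons, dotted lines marking 2-fold. *Cdkn1a*, *Cdkn1b* and *Cdkn2b* lie at -1.96, -1.92 and -1.79 in the top panel, *Cdkn2d* and *Cdkn2c* at 2.76 and 2.22 in the middle panel, and no member lies past 2-fold in the bottom panel.

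In the alpha cells of GNF4877-treated islets, the members were at levels near those of the Ins1-high GNF4877 cells, with log2 ratios of alpha over Ins1-high cells from -0.72 (*Men1*) to 0.28 (*Cdkn1c*). None of the 8 was past 2-fold in either direction. Of the 12934 genes with a mean of 1 RPM or more over both groups, 35% were at -1 or less and 12.6% at 1 or more, with a median of -0.47. *Cdkn1a*, *Cdkn1c* and *Cdkn2a* did not pass this filter. Their means were at most 0.567 RPM in either group, so with 1 RPM added they could not reach 2-fold. Shares of cells with a read had overlapping intervals for all 8 members, against 0.487% of genes with intervals apart and higher and 2.13% lower. At 10 RPM or more 0.564% of genes were higher and 2.39% lower, at 100000 reads 0.503% and 3.05%, and 0 of the 8 members in either case. *Cdkn2b* was read in 18 of the 18 alpha cells (81.5% to 100%), from 1.19 to 18.97 RPM with a median of 4.83 RPM. *Cdkn1b* was read in 9 of the 18 (50%, 26.02% to 73.98%), up to 28.4 RPM. *Cdkn2d* was read in 3, at 104 RPM in cell 58, 72.6 RPM in cell 20 and 47.3 RPM in cell 34. *Cdkn2c* was read in 2, at 42.3 RPM in cell 34 and 9.37 RPM in cell 20. Cell 20 was the alpha cell with the highest *Ccnb1*, 287 RPM. *Men1* was read in 2, at 273 RPM in cell 58 and 0.708 RPM in cell 84, and *Cdkn1a* in 2, at 1.47 RPM in cell 94 and 1.38 RPM in cell 9. Without cell 58 the ratios of *Cdkn2d* and *Men1* were -1.44 and -4.68, and without cell 34 that of *Cdkn2c* was -1.40.

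The 5 alpha cells of DMSO-treated islets are given singly. *Cdkn1b* was at 38.5 RPM in cell 90, 25.02 RPM in cell 94, 23.5 RPM in cell 67, 12.2 RPM in cell 33 and 0 in cell 89. *Cdkn2b* was read in all 5, from 2.61 to 25.02 RPM. *Cdkn1a* was read only in cell 33, at 120 RPM, and *Cdkn2d* only in cell 89, at 112 RPM, the cell that held *Cdkn2a*. *Men1* was at 0 in all 5. A level of 10 RPM or more of *Cdkn1b* was thus reached by 4 of the 5 DMSO and 4 of the 18 GNF4877 alpha cells (80%, 28.4% to 99.5%, and 22.2%, 6.41% to 47.6%), with intervals that overlap.

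The genes that act with the inhibitors were taken from lists of their known partners and regulators, and higher and lower here mean a log2 ratio of at least 1 or at most -1. The counts stand beside percentages of all genes with a mean of 1 RPM or more over both groups. This filter was not applied to the lists. The percentages were 9.04% higher and 21.1% lower for GNF4877 over DMSO, and 17.0% and 25.4% for *Ccnb1* of 10 RPM or more over *Ccnb1* of 0. For alpha over Ins1-high cells they were 12.6% and 35%. With so few genes a list, nothing particular to a list is read from the counts. The INK4 targets are *Cdk4*, *Cdk6* and the D-type cyclins. For GNF4877 over DMSO with *Ccnb1* of 0, 1 of these 5 was at -1 or less and 0 at 1 or more. It was *Ccnd2*, the cyclin D2 gene, at 136 against 351 RPM (log2 ratio -1.36). None of the 5 was past 2-fold for *Ccnb1* of 10 RPM or more over *Ccnb1* of 0. In alpha over Ins1-high cells 2 were lower, *Ccnd1* at 16.5 against 112 RPM (-2.70) and *Ccnd3* at 0.206 against 22.7 RPM (-4.30).

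The CIP/KIP targets comprised *Cdk1*, *Cdk2* and the cyclins E, A and B2, 7 genes. For GNF4877 over DMSO with *Ccnb1* of 0, 3 were higher and 1 lower. *Cdk2*, which drives entry into S phase, was at 87.9 against 20.4 RPM (2.06) and was read in 38 of 40 and 42 of 77 cells. The others rested on few cells, *Ccnb2* (2.56) and *Ccna2* (1.57) being higher on reads in 6 and 2 of 40 cells and *Ccne1* lower (-1.47) on reads in 2 of 40 and 4 of 77. With *Ccnb1* of 10 RPM or more over *Ccnb1* of 0, 7 of the 7 were higher, with a median log2 ratio of 2.69, led by *Cdk1* (407 against 5.88 RPM, 5.89) and *Ccnb2* (232 against 9.10 RPM, 4.53). Among the 7, *Ccna1* (1.58) rested on reads in 1 of 11 against 0 of 40 cells and *Ccne1* (2.06) on 3 of 11 against 2 of 40. Neither would pass the filter on mean RPM behind the percentages of all genes. The groups were divided by *Ccnb1*, itself a cyclin gene, so higher values of other genes of the cycle are partly given by the division. In alpha over Ins1-high cells 2 were lower, *Ccnb2* (-3.91) and *Cdk1* (-1.65).

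The pocket proteins, the substrates through which CDKs release E2F factors, are 3 genes. In GNF4877 over DMSO with *Ccnb1* of 0, 2 were lower, *Rb1* at 19.3 against 55.4 RPM (-1.48) and *Rbl2*, the p130 gene of resting cells, at 6.91 against 32.8 RPM (-2.09). *Rbl2* was read in 16 of 40 and 68 of 77 cells. With *Ccnb1* of 10 RPM or more over *Ccnb1* of 0, *Rbl1* (2.20) and *Rbl2* (2.41) were higher, and in alpha over Ins1-high cells *Rbl1* was lower (-3.40).

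Of 10 measured genes of the ubiquitin ligases that degrade p27 and p21, 2 were higher and 0 lower in GNF4877 over DMSO, 3 higher and 1 lower with *Ccnb1* of 10 RPM or more, and 0 higher and 5 lower in alpha cells. The 2 in the first comparison were *Dtl* (3.95), read in 6 of 40 and 1 of 77 cells, and *Skp2* (1.13), read in 2 of 40 and 5 of 77, and the same genes were higher in the second (1.41 and 1.24). *Cks1b*, the cofactor by which Skp2 binds p27, was at 76.9 RPM in the cells with *Ccnb1* of 10 RPM or more and 22.9 RPM in those with *Ccnb1* of 0 (1.71), where *Rnf123*, a ligase for p27 in G1, was at 1.49 and 11.9 RPM (-2.37). In alpha over Ins1-high cells *Cks1b* (-1.62) and *Rbx1* (-1.30) were lower. Of 5 kinases known to phosphorylate the inhibitors, 1 was lower in GNF4877 over DMSO, *Akt1* at 17.2 against 38.6 RPM (-1.13). With *Ccnb1* of 10 RPM or more 1 was higher, *Akt1* (1.07), and 2 were lower, both targets of GNF4877. *Gsk3b* was at 96.3 against 226 RPM (-1.22), and *Dyrk1a*, read in 1 of 11 and 7 of 40 cells, at 0.0574 against 15.9 RPM (-4.00). In alpha cells 1 was lower, *Gsk3b* (-1.25).

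Among 8 measured partners of menin, 3 were lower and 0 higher in GNF4877 over DMSO. *Ash2l*, a core subunit of the methyltransferase complex, was at 14.8 against 41.8 RPM (-1.44), and *Jund*, a factor that menin binds, at 11.6 against 33.1 RPM (-1.44). The other was *Mll1* (-1.14), a methyltransferase of the complex. With *Ccnb1* of 10 RPM or more over *Ccnb1* of 0, 2 were higher and 2 lower. *Wdr5* was at 142 against 20.8 RPM (2.71), read in 6 of 11 and 19 of 40 cells. *Rbbp5* was at 2.53 against 57.7 RPM (-4.06), read in 3 of 11 and 20 of 40 cells. Both are core subunits of the same complex. *Ash2l* was higher (1.24) and *Mll1* lower (-1.57). In alpha cells *Hcfc1* was lower (-2.25) and no other partner was past 2-fold.

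Of 13 measured polycomb genes, which are known to silence the *Cdkn2a* and *Cdkn2b* locus, 4 were lower and 0 higher in GNF4877 over DMSO, among them *Cbx7* (-1.18), *Phc2* (-1.12) and *Eed* (-1.01). With *Ccnb1* of 10 RPM or more over *Ccnb1* of 0, 2 were higher and 8 lower. *Ezh2*, the histone methyltransferase of dividing cells, was at 77.9 against 12.3 RPM (2.57) and was read in 9 of 11 and 10 of 40 cells. *Eed* was higher too (1.79), and *Bmi1* was at 1.196 against 20.6 RPM (-3.30). *Bmi1* was read in 5 of 11 and 14 of 40 cells, so its lower mean did not go with a smaller share of cells. In alpha cells 1 was higher and 3 lower, *Phc1* being lower (-1.77). Of 13 transcription factors known to act on the inhibitor genes, 1 was higher and 4 lower in GNF4877 over DMSO. *Zbtb17*, the Miz-1 gene, was at 0.768 against 9.90 RPM (-2.62), and *Myc*, whose product represses *Cdkn1a* and *Cdkn2b* through Miz-1, at 5.39 against 12.9 RPM (-1.12). *Foxo1* (-3.10) and *Foxo3* (-2.76), which promote *Cdkn1b* transcription, were read in 3 and 0 of 40 against 17 and 15 of 77 cells, and *Smad3* (2.83) was higher with reads in 1 of 40 against 8 of 77 cells. With *Ccnb1* of 10 RPM or more 4 were higher and 4 lower, *Zbtb17* (3.24) and *Foxo1* (2.73) being higher on 3 cells each of 11. In alpha cells 1 was higher, *Klf4* (1.57), and 3 were lower.

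**Figure D5:**
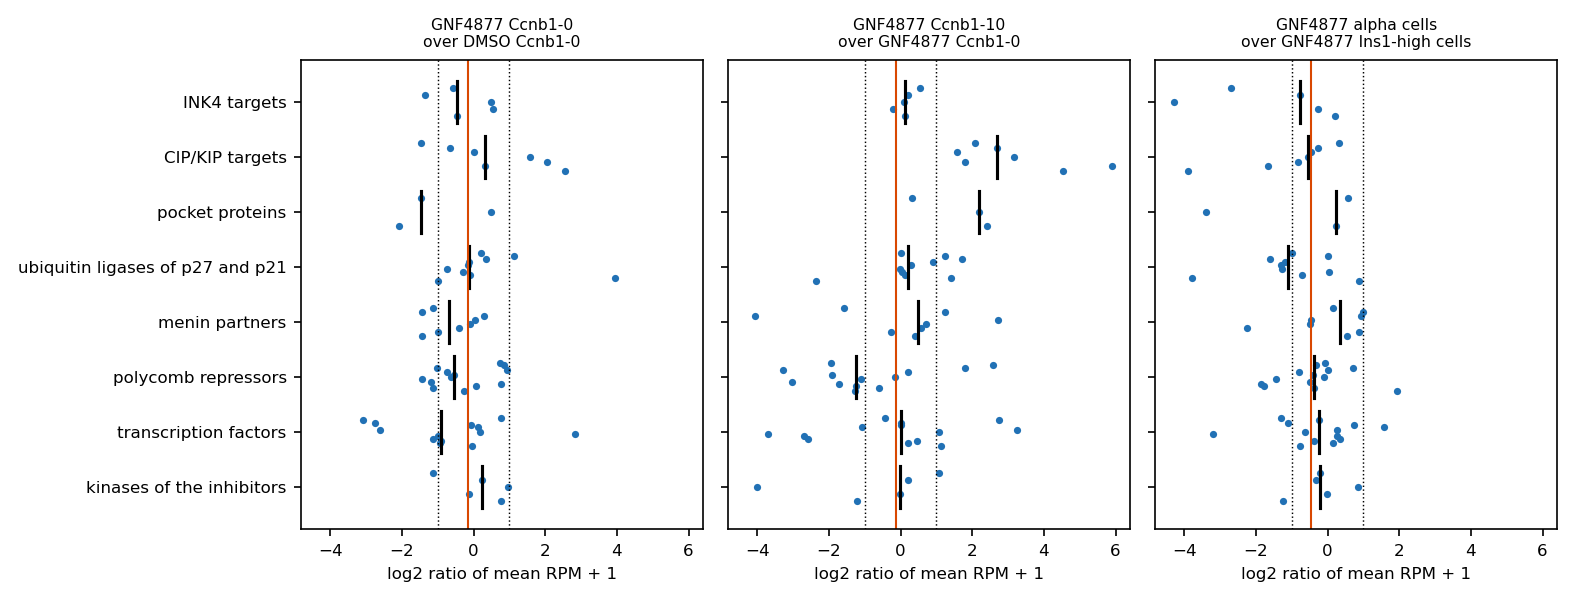
Log2 ratios of mean RPM + 1 of the measured genes of 8 lists of partners and regulators in the 3 comparisons. Each point is 1 gene, the black bar the median of its list, the orange line the median of all genes tested and the dotted lines 2-fold. The lists were not filtered by mean RPM. All 7 CIP/KIP targets lie past 2-fold in the middle panel, whose groups were divided by the cyclin gene *Ccnb1*. *Ccna1* and *Ccne1* are among them on reads in few cells.

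Correlations between members across cells were low, but cells without a read limit how high they can be. In the Ins1-high cells, Spearman's rho between pairs of members, given as a description over cells that share a chip, lay between -0.10 and 0.25 in the 78 DMSO cells. The range includes *Cdkn1c* and *Cdkn2a*, each read in 1 of these cells, whose rho could not lie far from 0. In the 59 GNF4877 cells it was highest for *Cdkn1b* with *Cdkn2c* (0.42) and for *Cdkn2c* with *Cdkn2d* (0.39). All 12 cells with *Cdkn2c* also held *Cdkn1b*, and 7 of them held *Cdkn2d*. Only *Cdkn1b* and *Cdkn2b* were read in 50% or more of the Ins1-high cells of both treatments. Among 8465 genes read in 50% or more of the DMSO cells, those most like *Cdkn1b* were *Lrpap1* (rho of 0.53, and 0.17 in GNF4877), *Ccdc181* (0.53 and 0.17) and *Stard5* (0.49 and 0.22). Among 6231 such genes in the GNF4877 cells they were *Ppp1r2* (0.59, and 0.28 in DMSO), *Rab11b* (0.55 and 0.43) and *Nudt7* (0.53 and 0.10). *Ccdc181* and *Stard5* were read in only 16 and 23 of the 59 GNF4877 cells and could not enter that ranking. Nothing is therefore read from the lack of genes in common.

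The genes most like *Cdkn2b* were *LOC100912887* (0.57 in DMSO and 0.71 in GNF4877), *Dnpep* (0.57 and -0.11) and *Siglec1* (0.56 and 0.67) in DMSO, and *LOC100912887*, *LOC498592* (0.70, and 0.52 in DMSO) and *Cdkl1* (0.69, and 0.36 in DMSO) in GNF4877. *LOC100912887* and *Cdkl1* were read in every Ins1-high cell. *Siglec1*, a receptor of macrophages, was read in 72 of the 78 Ins1-high DMSO cells at a median of 9.90 RPM. In these cells the leukocyte gene *Ptprc* was read in 22 at no more than 3.32 RPM. *Cd68*, another macrophage gene, was read in 1 at 13.7 RPM, *Lyz2* in 10 at up to 12.6 RPM, *Laptm5* in 21 at up to 13.5 RPM, and *Cd74*, a gene of antigen presentation, in 17 at up to 418 RPM. In the Ins1-high GNF4877 cells *Cd74* reached 981 RPM and *Cd68* 155 RPM.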

How the data were processed

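Per the labels and the methods, libraries of single cells (SMARTer cDNA on Fluidigm C1 chips, Nextera XT) were sequenced with single 50 bp reads and aligned with BWA (0.5.9 per the submitters' processing notes, which also name CASAVA 1.8.2 and SAMtools 0.1.19). A mouse transcriptome is given as the reference in the methods, but the rows are rat RefSeq transcripts. A genome build is not given in the sources used here. The authors deposited RPM, reads per 1000000 mapped reads, with 0.01 where no read was counted (69.7% of values), for cells with more than 100000 mapped reads.

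Here 0.01 was set to 0 and rows of a symbol were added. Whole reads were taken from each cell's smallest step, 100% of values up to 20 reads lying within 0.1 of a whole read. Ratios are of mean RPM with a pseudocount of 1 RPM, 2-fold being a log2 ratio of 1. Percentages of all genes use genes with a mean of 1 RPM or more over both groups. Shares have exact Clopper-Pearson 95% intervals. Thinning to 100000 reads left out 3 cells per treatment, which had fewer on listed transcripts. Doublets were not removed. The comparisons of treatments, of *Ccnb1* levels and of alpha with Ins1-high cells have no p-value, since each treatment is 1 sample. The ratio step was tested on simulated cells that varied within a group only by counting error. The test covers the calculation and not ratios that rest on single cells.

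The members and lists were chosen with earlier results of these data known. Named were all members, up to 2 genes per list and comparison past 2-fold and read in 25% or more of the cells of the higher group (largest ratios first), the 3 genes most correlated with each member read in 50% or more of the Ins1-high cells of both treatments, and *Ins1*, *Ccnb1* and *Gcg*. *Mki67*, the cells named singly, and further list genes named to complete a count of 4 or fewer were chosen after their values were seen. Of the listed genes and markers, *Fbxw7*, *Kmt2b*, *Suz12* and *G6pc2* have no row under the symbols tried. Values of some list genes are not reported here. Thresholds, pseudocount, scale, depth, second-hormone cells and single cells were varied for the members but not for the single genes of the lists. Leaving out cells with under 50% of reads on listed transcripts was added after the data were seen. Promoter sequences are from RefSeq (GRCr8) for 7 of the 8 members. The software was pandas 2.3.3, scipy 1.17.1, numpy 2.4.6 and, for figures, matplotlib 3.10.9 under Python 3.11.15.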

Additional observations from a re-analysis of the deposited data

How the results depend on the processing

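No paired analysis was possible because the cells of a treatment are 1 sample and their numbers only name the cells. With a pseudocount of 10 RPM, 1 member in place of 3 (*Cdkn1b*) was at -1 or less for GNF4877 over DMSO, and 2 in place of 4 (*Cdkn2d* and *Men1*) were at 1 or more for *Ccnb1* of 10 RPM or more over *Ccnb1* of 0. With 0.1 RPM, 4 members in place of 3 were lower for GNF4877 over DMSO, *Cdkn2c* being added (-1.08), as it was at 100000 reads (-1.17). With 0.1 RPM also, 1 member in place of 0 (*Cdkn1a*) was lower for *Ccnb1* of 10 RPM or more over *Ccnb1* of 0, and in alpha cells 1 was higher (*Cdkn1c*) and 1 lower (*Cdkn1a*), in place of 0 each. Taking *Ccnb1* above 0 in place of 10 RPM left 2 of 4 members higher (*Cdkn2c* and *Cdkn2d*). With *Ccnb1* of 0 in both groups, 1 member was lower in alpha cells (*Cdkn2c*). Leaving out each cell in turn, the counts ranged from 3 to 4 lower for GNF4877 over DMSO, from 3 to 4 higher and from 0 to 1 lower for *Ccnb1* of 10 RPM or more, and from 0 to 2 lower in alpha cells. *Men1* changed sign in cells with *Ccnb1* of 10 RPM or more on the mean of log2(RPM + 1) (-0.63) and without cell 25 (-4.42), and was 2.05 without cell 21. The 6 other ratios past 2-fold kept their sign under the 11 alternatives that leave out no single cell, and *Cdkn1b* for GNF4877 over DMSO and *Cdkn2d* for *Ccnb1* of 10 RPM or more stayed past 2-fold under all 11, with ranges of -2.09 to -1.08 and 2.03 to 2.91. *Cdkn1a*, not past 2-fold in the latter comparison, went from -0.69 to 0.34 at 100000 reads. On the mean of log2(RPM + 1), *Cdkn1a* was no longer past 2-fold for GNF4877 over DMSO (-0.89, leaving 2 members in place of 3) and *Cdkn2b* was at -1.05. On this scale the median of all genes was -0.52 in place of -0.15 for GNF4877 over DMSO, with 1.28% of genes higher and 26.7% lower, 0.07 in place of -0.12 for *Ccnb1* of 10 RPM or more, with 14.8% higher and 6.41% lower, and -0.27 in place of -0.47 in alpha cells, with 3.36% higher and 19.9% lower. With a pseudocount of 10 RPM, 9.86% of genes were higher and 9.66% lower for *Ccnb1* of 10 RPM or more.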

Other observations

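The 10 other cells were in none of the groups, having neither *Ins1* nor *Gcg* of 1000 RPM. Of these, 4 held *Ppy* of 1000 RPM or more. DMSO cell 29 among them held 35.6 RPM of *Cdkn1b*, 54.5 RPM of *Cdkn2d*, 54.5 RPM of *Men1* and 9.48 RPM of *Cdkn2b*, and GNF4877 cells 33, 62 and 73 held 11.9, 16.6 and 0 RPM of *Cdkn1b* and no *Cdkn2d* or *Men1*. The 1 cell with *Sst* of 1000 RPM or more, GNF4877 cell 49, held 10.1 RPM of *Cdkn1b* and 11.4 RPM of *Cdkn2d*, beside 1460 RPM of *Ccnb1* and 608 RPM of *Mki67*. Of the 5 cells without any of these hormones at 1000 RPM, 3 had few reads on listed transcripts and no read of any member. GNF4877 cell 15, also without a hormone, held 129 RPM of *Cdkn2d*, 24.4 RPM of *Cdkn2c*, 23.3 RPM of *Men1* and 5.42 RPM of *Cdkn1b*, beside 608 RPM of *Ccnb1* and 596 RPM of *Mki67*, and DMSO cell 83 held 8.98 RPM of *Cdkn2b* and no other member. The 1 Ins1-high DMSO cell with *Ccnb1*, cell 46, held 5 of the 8 members, with 52 RPM of *Men1*, 24.7 RPM of *Cdkn1b*, 4.41 RPM of *Cdkn2b*, 2.64 RPM of *Cdkn2d* and 1.76 RPM of *Cdkn1a*, beside 240 RPM of *Mki67*.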
